A study of Mus musculus with 118 samples.

Results

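Genomic imprinting is the expression of a gene from only the copy inherited from the mother or only the copy inherited from the father. Imprinted genes lie in clusters, most of which are controlled by a germline differentially methylated region (gDMR), a CpG-rich sequence methylated in the egg or sperm. At several clusters a long non-coding RNA is made from one parental copy and neighbouring genes are silenced on that copy, and Polycomb complexes are known to take part in this silencing in some tissues, the placenta above all. PRC1 is a Polycomb complex that ubiquitylates histone H2A through RING1A or RING1B, its catalytic subunit, and PRC2, which contains SUZ12, methylates histone H3. PCGF2 marks canonical PRC1, the form that recognises the mark made by PRC2.

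The genes described here were 42 imprinted genes of 18 clusters, taken from a fixed list by name, out of 26180 mouse genes with a curated RefSeq transcription start site (TSS). All 42 were found in the annotation, with 63 TSSs in total, and Nespas is listed there as Gnasas1. The study used cChIP-seq, a form of ChIP-seq calibrated with spiked-in cells of another species, in mouse embryonic stem cells (ESCs). It holds 118 samples in 42 groups, and the values used here were the positions of peaks in 3 lists, for RING1B, SUZ12 and PCGF2. All 3 lists came from untreated cells, so nothing below measures an effect of PRC1 catalysis.

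The engineered lines PRC1CPM and PRC1CKO stand behind the lists. PRC1CPM ESCs (clone 41, E14 background) carry the I50A and D53K substitutions in Ring1a, floxed Ring1b alleles that switch from wild type to I53A and D56K, and ERT2-Cre at Rosa26. Untreated PRC1CPM cells gave 3 samples for each of the 3 antibodies. PRC1CKO ESCs (clone B9, E14 background) lack Ring1a and carry floxed Ring1b with ERT2-Cre at Rosa26, and SUZ12 was profiled in 3 untreated PRC1CKO samples. RING1A was therefore absent or already inactive in all groups used, while RING1B was wild type. Each line is 1 clone. The RING1B list also rests on PRC1CKO data from outside these samples. Each list is a single set of positions, with no height and no value per sample, so there was no replicate error, the depth of the libraries was not analysed here, and no test was made. The lists do not separate the parental copies, and the identity of the cells could not be checked from peak positions.

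A promoter was taken as the TSS plus or minus 2500 bp, and a gene was counted for a factor if a peak of that list shared at least 1 bp with any of its promoters. RING1B lay at 32 of the 42 imprinted genes (76.2%), against 53.2% of all genes. SUZ12 lay at 20 (47.6%, against 24.8% of all genes) and PCGF2 at 15 (35.7%, against 13.5%). All 15 genes with PCGF2 also had RING1B and SUZ12, a combination found at 13.4% of all genes. A further 5 imprinted genes had RING1B and SUZ12 without PCGF2 (11.9%, against 11.1% of all genes), 12 had RING1B alone (28.6%, the same as the 28.6% of all genes), and 10 had none of the 3 factors (23.8%, against 46.5%).

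Imprinted promoters are richer in CpG than most, and RING1B is known to favour CpG-rich promoters. The counts were therefore also made separately for CpG-rich and other promoters. A gene was called CpG-rich if the 1 kb around a TSS had a CpG observed/expected of at least 0.6 and a GC content of at least 50%. By this measure 27 of the 42 imprinted genes were CpG-rich (64.3%, against 43.9% of all genes). Among them RING1B lay at 25 (92.6%, against 88.8% of all CpG-rich genes), which is close to the background. SUZ12 lay at 17 (63%, against 40.4%), PCGF2 at 13 (48.1%, against 23.1%), and all 3 together at the same 13 (48.1%, against 23%). None of the 3 was found at 2 CpG-rich imprinted genes (7.41%, against 11.1%). Of the 15 imprinted genes that were not CpG-rich, RING1B lay at 7 (46.7%, against 25.3% of all genes that were not CpG-rich), SUZ12 at 3 (20%, against 12.5%) and PCGF2 at 2 (13.3%, against 5.93%). The same 2 had all 3 factors (13.3%, against 5.89%), and 8 had none (53.3%, against 74.3%). The CpG-rich groups were alike in median CpG observed/expected (0.776 for imprinted genes, 0.790 for all genes). The groups that were not CpG-rich were not alike (0.475 and 0.251), so their shares are not a comparison at like CpG content.

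**Figure D1:**
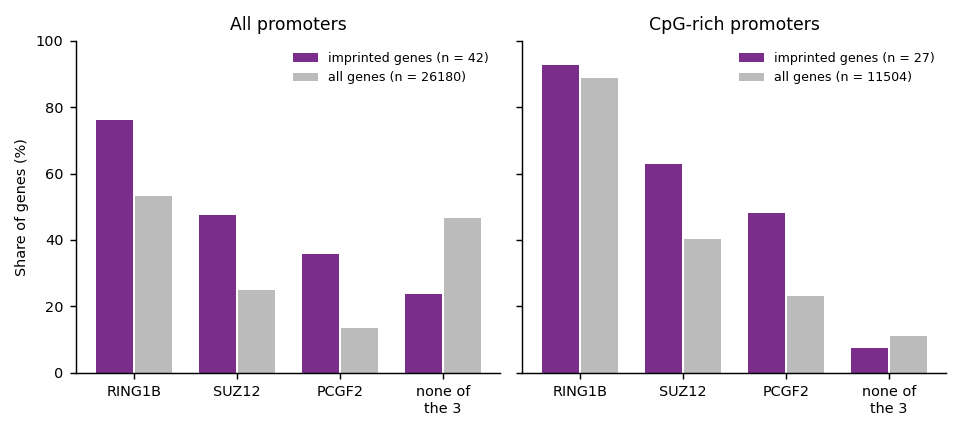
Share of genes (%, vertical axis) with a RING1B, SUZ12 or PCGF2 peak at a promoter, or with none of the 3, for the imprinted genes (purple) and all genes (grey), over all promoters (left) and CpG-rich promoters (right). In CpG-rich promoters the RING1B bars are close (92.6% and 88.8%), while the SUZ12 bars (63% and 40.4%) and PCGF2 bars (48.1% and 23.1%) are farther apart; the bars carry no error because each list is a single set of positions.

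The width of the RING1B peak varied widely among imprinted genes. Taking the widest peak of each gene, the median over the 32 genes with RING1B was 2686 bp, with an interquartile range of 1414.25 to 7027.5 bp, against 1810 bp (1089 to 3375.25 bp) over all 13922 genes with RING1B. Of the 32 imprinted genes with RING1B, 10 lay above the 90th percentile of width over all genes with RING1B. Width went with the other factors. The genes with all 3 had RING1B peaks of 2682 to 22371 bp (median 7043 bp, against 4917.5 bp for all genes with all 3), those with RING1B and SUZ12 had 772 to 3152 bp (median 1852 bp, against 1999 bp), and those with RING1B alone had 475 to 2643 bp (median 1375.5 bp, against 1232 bp). No imprinted gene without PCGF2 had a RING1B peak wider than 3152 bp. Over all genes there was no such limit, with peaks up to 23384 bp at genes with RING1B and SUZ12 and up to 16118 bp at genes with RING1B alone.

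**Figure D2:**
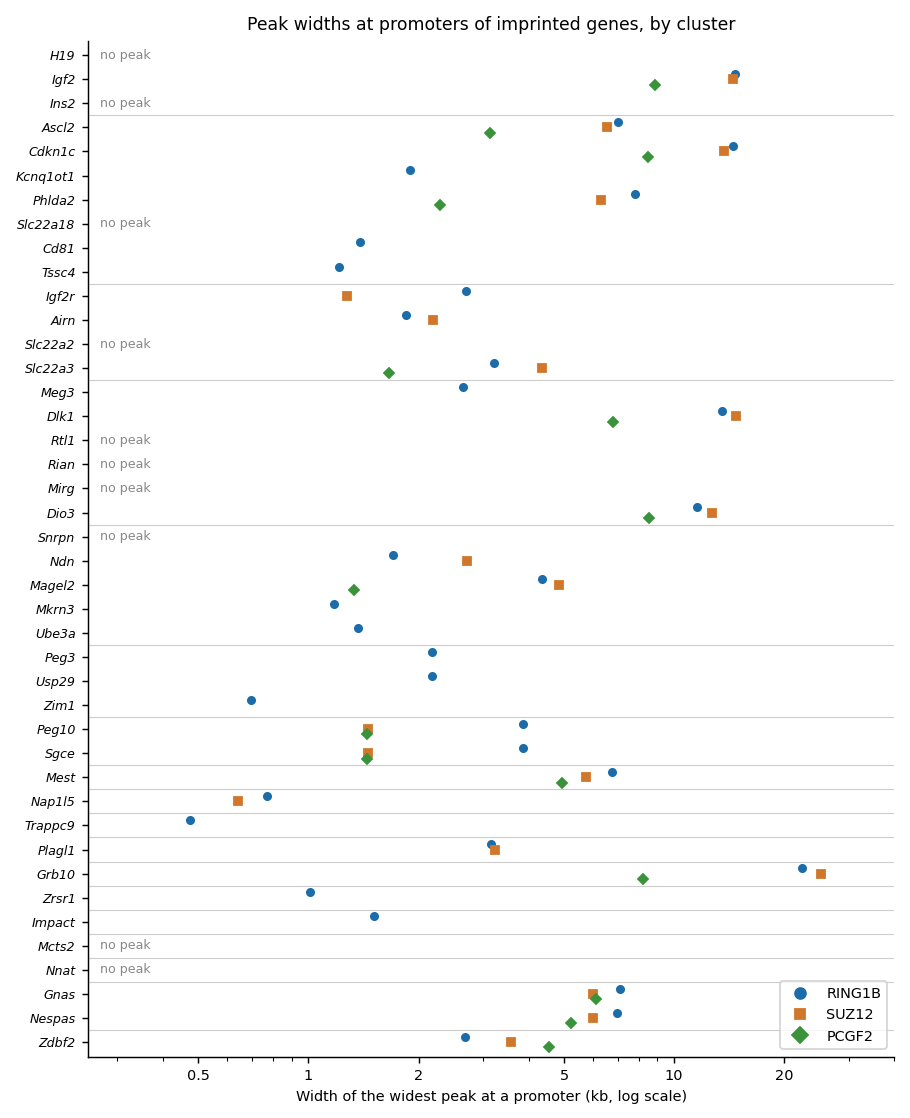
Width of the widest RING1B (circles), SUZ12 (squares) and PCGF2 (diamonds) peak at a promoter of each imprinted gene, in kb on a log axis, with horizontal lines between clusters. Grb10, Igf2, Cdkn1c, Dlk1 and Dio3 have RING1B peaks above 11 kb, and 10 genes have no peak in any list.

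The genes with all 3 factors are described first, by role. Igf2 encodes a fetal growth factor expressed from the paternal copy. All 4 of its TSSs lay in a RING1B domain of 14631 bp (chr7:142653731-142668361), with a SUZ12 peak of 14470 bp and a PCGF2 peak of 8852 bp that took in 3 of the 4 TSSs. The same RING1B domain covers promoters of Igf2os and Mir483, so it cannot be assigned to Igf2 alone. Grb10, an adaptor that binds growth factor receptors and limits growth, had the widest domain of the 42 genes. RING1B covered 22371 bp (chr11:12020886-12043256), SUZ12 covered 25229 bp and enclosed it, and PCGF2 formed 2 peaks of 7184 and 8237 bp, each over 1 of the 2 TSSs. The TSS with the higher CpG content had a CpG observed/expected of 1.07 and the other 0.252, and both lay inside all 3 lists.

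The Kcnq1 cluster held 3 genes with all 3 factors, which are expressed from the maternal copy. Cdkn1c encodes the cyclin-dependent kinase inhibitor p57, and Phlda2 limits growth of the placenta. Cdkn1c had a RING1B domain of 14524 bp (chr7:143453772-143468295), which reached 7245 bp upstream and 7278 bp downstream of the TSS, with 13659 bp of SUZ12 and 8474 bp of PCGF2. Phlda2 had 7803 bp of RING1B (chr7:143499003-143506805), 6296 bp of SUZ12 and 2292 bp of PCGF2. Ascl2, a transcription factor needed in trophoblast, had 7043 bp of RING1B (chr7:142964950-142971992), 6568 bp of SUZ12 and 3134 bp of PCGF2. In each of these 3 genes the PCGF2 peak lay wholly within the SUZ12 peak.

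Dlk1 and Dio3, which are expressed from the paternal copy, lie at opposite ends of the Dlk1-Dio3 cluster, while Rtl1, also paternally expressed and protein-coding, lies inside it and had no peak. Dlk1 encodes a transmembrane protein related to Notch ligands, and Dio3 encodes an enzyme that inactivates thyroid hormone. The Dlk1 domain was 13533 bp for RING1B (chr12:109447691-109461223), 14800 bp for SUZ12 and 6783 bp for PCGF2. The Dio3 domain was 11580 bp for RING1B (chr12:110273824-110285403), 12698 bp for SUZ12 and 8510 bp for PCGF2, and it also covered promoters of Dio3os and Mir1247. Both RING1B domains were enclosed by SUZ12.

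The Gnas locus, which encodes the stimulatory G protein alpha subunit and several other products from separate promoters, had 3 RING1B domains. From the most upstream TSS to the most downstream they measured 5610 bp (chr2:174283497-174289106), 6981 bp (chr2:174294698-174301678) and 7114 bp (chr2:174325274-174332387). SUZ12 covered 63.7%, 83.1% and 78.4% of them, and PCGF2 covered 71%, 75% and 85.8%. All 5 Gnas TSSs lay inside all 3 lists. Nespas, an antisense RNA of the locus expressed from the paternal copy, shares the middle domain with Gnas. Its own TSS was inside the RING1B peak but 443 bp from the SUZ12 peak and 691 bp from the PCGF2 peak.

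Mest, which encodes a hydrolase family protein, had 6773 bp of RING1B (chr6:30732569-30739341), 5722 bp of SUZ12 and 4948 bp of PCGF2. Of its 3 TSSs all lay in RING1B and SUZ12, and 1 lay in PCGF2. Magel2, a MAGE family gene of the Snrpn-Ube3a cluster, had 4357 bp of RING1B (chr7:62375854-62380210), 4854 bp of SUZ12 and 1331 bp of PCGF2, the narrowest PCGF2 peak at these genes. Slc22a3, an organic cation transporter of the Igf2r-Airn cluster, had 3223 bp of RING1B (chr17:12505378-12508600), 4345 bp of SUZ12 and 1663 bp of PCGF2. Magel2 reached all 3 lists with a CpG observed/expected of 0.557, the lowest value of the 15 genes.

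Peg10, a gene derived from a retrotransposon and needed in the placenta, and Sgce, which encodes epsilon sarcoglycan, are transcribed away from each other and share a single domain. RING1B covered 3850 bp (chr6:4745453-4749302) and both TSSs. SUZ12 and PCGF2 covered 1459 and 1449 bp on the Peg10 side, starting 75 and 48 bp downstream of the Peg10 TSS. The Sgce TSS was 177 bp from SUZ12 and 150 bp from PCGF2, so neither TSS lay in either of these lists. SUZ12 covered 37.9% of this RING1B domain, the lowest share of the 15 domains with all 3.

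Zdbf2, a zinc finger gene expressed from the paternal copy, differed between its TSSs. The upstream TSS had a RING1B peak of 687 bp (chr1:63200010-63200696) and neither SUZ12 nor PCGF2. The downstream TSS had all 3, with 2682 bp of RING1B (chr1:63272323-63275004), 3575 bp of SUZ12 and 4539 bp of PCGF2. This was the 1 domain of the 15 at which the PCGF2 peak was wider than the RING1B peak, and 70.3% of the PCGF2 peak lay within SUZ12.

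Over the 15 RING1B domains with all 3 factors, SUZ12 covered a median of 90.9% of the RING1B domain (37.9% to 100%) and PCGF2 a median of 60.5% (29.4% to 100%). The like shares were not computed for all genes. Over all genes with all 3, the median widths were 4917.5 bp for RING1B, 5394 bp for SUZ12 and 2914 bp for PCGF2. PCGF2 peaks were thus the narrowest there too. The lists were called by different rules, described under the processing of the data, and these can set the widths of their peaks, so the shares describe the lists and not the amount of each complex.

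**Figure D3:**
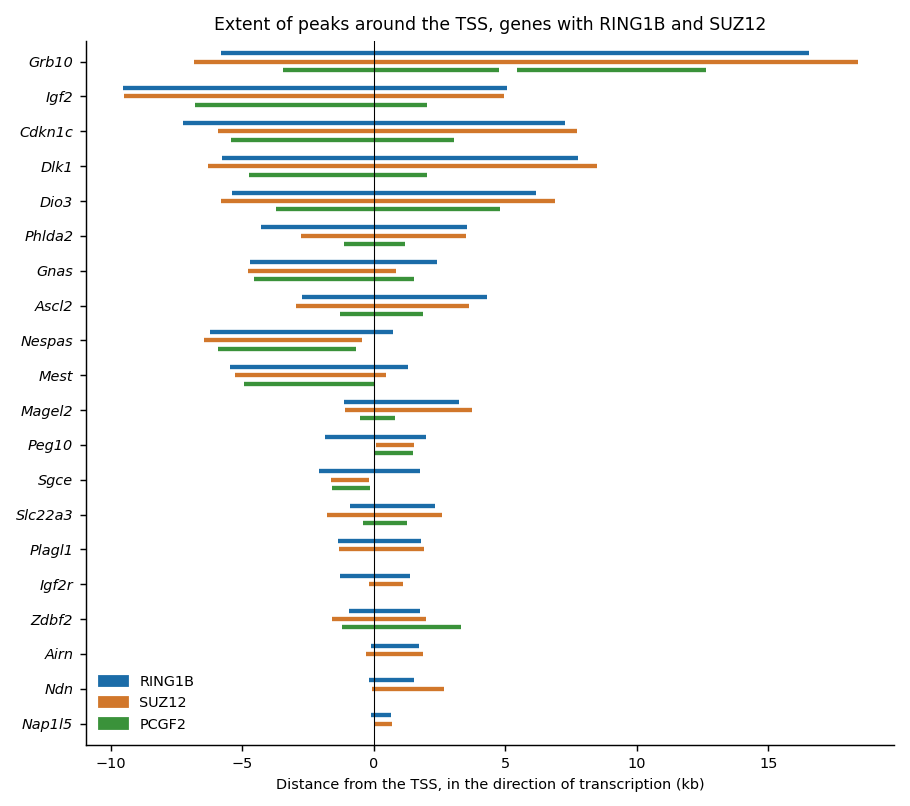
Extent of RING1B, SUZ12 and PCGF2 peaks (coloured lines) in kb from the TSS, in the direction of transcription, for the 20 imprinted genes with RING1B and SUZ12, ordered by RING1B width. The TSS used for a gene is the one with the highest CpG content in its widest RING1B domain, and only peaks touching that domain are drawn. At most genes the PCGF2 line is shorter than the others, and at Peg10, Sgce and Nespas the SUZ12 and PCGF2 lines stop short of the TSS.

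To show what sequence underlies the widest domains, the RefSeq promoter (250 bases before to 50 bases after a start, GRCm38.p6) is printed for the genes with the widest domain in the Grb10, H19-Igf2, Dlk1-Dio3 and Gnas clusters. CpG dinucleotides are in capitals, and where a gene has several promoters the one with the most CpGs is shown. All 300 bases of each lay inside the RING1B, SUZ12 and PCGF2 peaks. Grb10 (chr11:12037371-12037670, minus strand) held 45 CpGs, Igf2 (chr7:142658755-142659054, minus strand) held 24, Dlk1 (chr12:109452573-109452872, plus strand) held 9 and Gnas (chr2:174329756-174330055, plus strand) held 40.
Grb10: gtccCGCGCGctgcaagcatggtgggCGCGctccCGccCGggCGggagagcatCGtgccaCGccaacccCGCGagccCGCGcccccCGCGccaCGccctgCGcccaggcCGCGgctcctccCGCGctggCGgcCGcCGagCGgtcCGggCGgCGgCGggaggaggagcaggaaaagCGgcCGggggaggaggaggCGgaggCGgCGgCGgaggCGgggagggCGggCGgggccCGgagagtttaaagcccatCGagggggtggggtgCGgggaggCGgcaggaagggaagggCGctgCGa
Igf2: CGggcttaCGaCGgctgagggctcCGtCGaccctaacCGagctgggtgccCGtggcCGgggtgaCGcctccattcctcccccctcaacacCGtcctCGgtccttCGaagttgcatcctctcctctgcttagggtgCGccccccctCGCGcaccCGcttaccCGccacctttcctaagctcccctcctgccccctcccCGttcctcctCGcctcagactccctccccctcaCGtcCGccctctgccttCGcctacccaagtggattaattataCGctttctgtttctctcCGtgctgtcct
Dlk1: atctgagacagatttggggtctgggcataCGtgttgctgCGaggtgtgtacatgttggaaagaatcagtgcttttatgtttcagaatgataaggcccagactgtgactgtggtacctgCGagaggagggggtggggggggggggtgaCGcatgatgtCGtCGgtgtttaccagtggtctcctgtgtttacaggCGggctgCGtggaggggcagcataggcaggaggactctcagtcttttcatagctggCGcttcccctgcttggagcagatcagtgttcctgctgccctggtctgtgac
Gnas: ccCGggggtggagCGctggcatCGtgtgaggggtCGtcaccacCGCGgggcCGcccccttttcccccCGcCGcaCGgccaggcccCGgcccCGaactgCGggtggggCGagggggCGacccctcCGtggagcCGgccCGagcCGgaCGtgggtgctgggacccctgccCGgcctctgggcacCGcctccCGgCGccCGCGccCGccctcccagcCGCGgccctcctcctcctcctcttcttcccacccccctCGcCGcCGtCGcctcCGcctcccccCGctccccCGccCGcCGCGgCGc
The Dlk1 promoter in the table has a CpG observed/expected of 0.427 over its 300 bases, whereas the 1 kb around the other Dlk1 TSS had 0.829.

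The 5 genes with RING1B and SUZ12 but no PCGF2 had narrower peaks. Igf2r encodes the receptor that clears IGF2 and is expressed from the maternal copy, and Airn is the long non-coding RNA that overlaps it in the antisense direction and is expressed from the paternal copy. Igf2r had 2690 bp of RING1B (chr17:12768318-12771007) and 1278 bp of SUZ12. Airn had 1852 bp of RING1B (chr17:12741191-12743042) and 2186 bp of SUZ12. Plagl1, a zinc finger transcription factor, had the widest RING1B peak of this set, 3152 bp (chr10:13089479-13092630), with 3246 bp of SUZ12, and the nearest PCGF2 peak was 28663 bp from its TSS. Ndn, which encodes the MAGE family protein necdin, had 1700 bp of RING1B (chr7:62348083-62349782) and 2718 bp of SUZ12, with its nearest PCGF2 peak 28174 bp away. Nap1l5, a nucleosome assembly protein family gene inside an intron of Herc3, had 772 bp of RING1B (chr6:58906467-58907238) and 643 bp of SUZ12, whose edge was 26 bp from the TSS.

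The 12 genes with RING1B alone had peaks of 475 to 2643 bp. They were Kcnq1ot1, Cd81 and Tssc4 of the Kcnq1 cluster, Meg3 of the Dlk1-Dio3 cluster, Mkrn3 and Ube3a of the Snrpn-Ube3a cluster, all 3 genes of the Peg3 cluster (Peg3, Usp29 and Zim1), and Trappc9, Zrsr1 and Impact. The widest was at Meg3, a maternally expressed long non-coding RNA, with 2643 bp (chr12:109538911-109541553) over the more upstream of its TSSs. Next came the peak of 2171 bp (chr7:6729657-6731827) that Peg3, a zinc finger gene, and Usp29, a ubiquitin-specific protease gene, share at their divergent starts. Kcnq1ot1, the long non-coding RNA of its cluster, had 1895 bp (chr7:143295017-143296911), and its nearest SUZ12 peak was 76688 bp from the TSS. Cd81 encodes a tetraspanin, Ube3a an E3 ubiquitin ligase imprinted in neurons, Mkrn3 a makorin RING finger protein and Zim1 a zinc finger protein, and their peaks measured 1382, 1369, 1176 and 697 bp. The Cd81 peak also lay at a promoter of the annotated gene R74862. The Tssc4 peak was 1216 bp. Impact, a regulator of translation, had a peak of 1511 bp that began 388 bp from its nearest TSS. At Trappc9, which encodes a trafficking protein subunit, the peak of 475 bp ended 158 bp from the TSS, and at Zrsr1, a splicing factor gene inside an intron of Commd1, the peak of 1009 bp also lay at a Commd1 promoter.

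The long non-coding RNAs thus differed in what lay at their starts. Nespas was counted for all 3 lists, although its TSS lay 443 bp from the SUZ12 peak and 691 bp from the PCGF2 peak. Airn was counted for RING1B and SUZ12, and Kcnq1ot1 and Meg3 for RING1B alone, while H19, Rian and Mirg were counted for none. These are single positions for each gene, and no test of their differences was made.

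Of the 10 genes with no peak, 8 were not CpG-rich. H19, a maternally expressed long non-coding RNA, and Ins2, an insulin gene, are neighbours of Igf2. The H19 TSS was 43949 bp from the nearest RING1B peak, and the Ins2 TSS 11365 bp. Slc22a18 was 5494 bp from RING1B, although it lies between Cdkn1c and Phlda2, and Slc22a2 was 75589 bp away, although it lies between Slc22a3 and Airn. Both encode solute carriers. Rtl1, derived from a retrotransposon, and the RNA host genes Rian and Mirg lie between Meg3 and Dio3 and were 58777, 62392 and 193428 bp away. Snrpn, which encodes a spliceosomal protein and has a promoter in a gDMR, had 0 of 6 TSSs with a peak. The nearest RING1B peak was 775730 bp from the closest of these TSSs.

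The remaining 2 genes without a peak, Mcts2 and Nnat, had CpG-rich promoters. Both are paternally expressed, start in a maternally methylated gDMR and lie inside an intron of another gene, H13 for Mcts2 and Blcap for Nnat. Their CpG observed/expected over 1 kb was 0.954 and 0.869, above the median of 0.781 for the genes with all 3 lists. The nearest RING1B peak was 9193 bp from Mcts2 and 5860 bp from Nnat. Their RefSeq promoters, Mcts2 (chr2:152686898-152687197, plus strand) with 25 CpGs and Nnat (chr2:157559828-157560127, plus strand) with 17 CpGs, are shown in the same way, because they hold dense CpGs and 0 bases of any peak.
Mcts2: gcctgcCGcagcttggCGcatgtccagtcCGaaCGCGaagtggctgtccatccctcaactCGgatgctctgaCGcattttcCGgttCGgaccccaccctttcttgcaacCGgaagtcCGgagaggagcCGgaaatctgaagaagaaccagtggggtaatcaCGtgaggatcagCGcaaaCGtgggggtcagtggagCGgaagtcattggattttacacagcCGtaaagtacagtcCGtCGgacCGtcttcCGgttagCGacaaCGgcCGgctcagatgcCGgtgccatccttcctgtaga
Nnat: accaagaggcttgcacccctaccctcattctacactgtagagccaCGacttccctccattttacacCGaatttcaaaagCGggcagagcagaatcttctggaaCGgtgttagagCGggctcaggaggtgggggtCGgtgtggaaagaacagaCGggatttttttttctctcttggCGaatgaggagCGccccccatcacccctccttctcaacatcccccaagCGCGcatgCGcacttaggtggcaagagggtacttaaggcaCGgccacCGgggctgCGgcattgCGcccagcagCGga
Mcts2 had more CpGs in its 300 bases than Igf2 or Dlk1 above, but not over the 1 kb around the TSS with the highest CpG observed/expected. There Mcts2 held 62 CpGs and Nnat 72, against 75 for Igf2 and 99 for Dlk1.

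**Figure D4:**
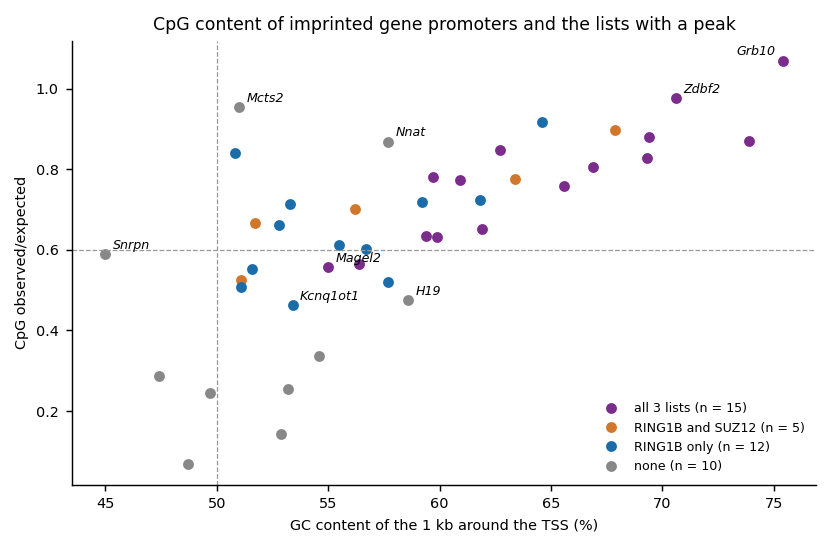
CpG observed/expected (vertical axis) against GC content (%, horizontal axis) of the 1 kb around the TSS with the highest CpG observed/expected, for each of the 42 imprinted genes, coloured by the lists with a peak at a promoter; dashed lines mark 0.6 and 50%. Genes with all 3 lists reach from 0.557 to 1.07, genes with none mostly lie below 0.6, and Mcts2 and Nnat lie above it.

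Across the 42 genes the CpG observed/expected rose with the number of lists. Its median was 0.781 for genes with all 3 (0.557 to 1.07), 0.701 with RING1B and SUZ12 (0.526 to 0.896), 0.636 with RING1B alone (0.463 to 0.918) and 0.312 with none (0.0676 to 0.954). The ranges overlapped in every step. Over all genes the medians were 0.733, 0.72, 0.752 and 0.224, so that among genes with RING1B the order by number of lists was not seen in the whole genome.

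Genes were also divided by whether they have a promoter in a maternally methylated gDMR and by the copy usually expressed, both from textbook knowledge. The promoter class was given per gene, while a peak at any promoter of the gene was counted. A counted peak may therefore lie at a promoter outside the gDMR, so these groups do not separate gDMR promoters from others. For comparison, the shares over all genes were 53.2% for RING1B, 24.8% for SUZ12 and 13.5% for PCGF2. Over CpG-rich genes they were 88.8%, 40.4% and 23.1%. Of the 17 genes classed as having a promoter in a maternally methylated gDMR, RING1B lay at 14 (82.4%), SUZ12 at 9 (52.9%) and PCGF2 at 6 (35.3%). Of the other 25, RING1B lay at 18 (72%), SUZ12 at 11 (44%) and PCGF2 at 9 (36%). Of the 24 genes expressed from the paternal copy, 19 had RING1B (79.2%), 13 had SUZ12 (54.2%) and 9 had PCGF2 (37.5%). Of the 17 expressed from the maternal copy, 12 had RING1B (70.6%), 6 had SUZ12 (35.3%) and 5 had PCGF2 (29.4%). Gnas, with products from either copy, was counted apart. Which copy of each gene is expressed in these ESCs was not checked. Since the lists do not separate the parental copies, a peak at a gDMR may lie on either copy or both.

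ZFP57, a zinc finger protein that maintains methylation at gDMRs, is known to recognise the methylated hexamer TGCCGC. The hexamer was searched on both strands of the 300-base RefSeq promoters, where 33 of the 42 genes had an entry. At least 1 promoter held it in 12 of these 33 genes (36.4%), against 3527 of 27025 genes in the table (13.1%). Because the hexamer contains a CpG and genes have several promoters, the CpG-rich promoters were also counted singly, and 9 of 24 from imprinted genes (37.5%) held it, against 25.2% of all 10995. Of the genes classed as having a gDMR promoter, 7 of 13 held it, and of the others 5 of 20. Any promoter of a gene was counted here, whether or not it lies in the gDMR. These counts therefore do not compare gDMR promoters with others. Among the printed promoters, Grb10, Mcts2 and Nnat held it 1 time each. A match is only a match of letters, and gDMRs extend beyond these windows.

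Along the clusters, peaks were not confined to the listed promoters. A cluster was measured from the first to the last base of its listed genes. Such spans are anchored on genes, so their covered shares are not matched to those of the whole genome. In the clusters, 14 RING1B peaks lay away from the listed promoters, 7 of them overlapping SUZ12 and 4 of these also PCGF2. In the Kcnq1 cluster 2 of them lay at promoters of unlisted genes, Tspan32 with RING1B alone and Kcnq1 with all 3 factors. The like shares over all RING1B peaks were not computed here, so these counts only describe the clusters. The Kcnq1 cluster (535.7 kb) held 11 RING1B, 7 SUZ12 and 6 PCGF2 peaks, which covered 9.45%, 10.2% and 3.82% of it, against 1.61%, 1.06% and 0.522% of the genome. Its largest peak away from a listed promoter lay between genes beside Cdkn1c, with 13398 bp of RING1B (chr7:143435814-143449211) inside 18737 bp of SUZ12. The near edge of the RING1B peak was 11839 bp from the Cdkn1c TSS, and PCGF2 formed 2 peaks in it, of 1088 and 4023 bp. In introns of Kcnq1, 2 further RING1B peaks of 1990 and 2465 bp overlapped SUZ12 without PCGF2.

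The Dlk1-Dio3 cluster (828.3 kb) was covered to 3.71% by RING1B, 3.04% by SUZ12 and 1.54% by PCGF2. Of its 7 RING1B peaks, 4 lay away from listed promoters. A peak of 6775 bp (chr12:110184782-110191556) lay between genes with its middle 91.1 kb from the Dio3 TSS, together with 8360 bp of SUZ12 and 4491 bp of PCGF2. Another of 1541 bp (chr12:109527592-109529132), without SUZ12 or PCGF2, lay between Dlk1 and Meg3 and ended 11864 bp before the Meg3 TSS. The intergenic gDMR of this cluster is known to lie between these genes, but its borders were not used here.

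The H19-Igf2 cluster (104.2 kb) was covered to 14% by RING1B, all of it in the domain at Igf2. The Igf2r-Airn cluster (439.9 kb) held 3 RING1B peaks, all at listed promoters, and was covered to 1.77%, near the 1.61% of the genome. The Snrpn-Ube3a cluster (3191 kb) was covered to 0.34% by RING1B, 0.293% by SUZ12 and 0.0417% by PCGF2, below the genome in each list, and its peaks at listed genes lay at Ube3a at one end and at Ndn, Magel2 and Mkrn3 at the other. The Peg3 cluster (291.8 kb) held 2 RING1B peaks and 0 peaks of SUZ12 or PCGF2. Among the smaller clusters, RING1B covered 30.1% of Gnas (65.51 kb), 15.5% of Grb10 (106.9 kb), 8.11% of Peg10-Sgce (86.17 kb) and 5.41% of Zdbf2 (114.2 kb). In short spans with 1 gene the share depends on the length of the gene. It was 39% at Mest (14.96 kb) and 34.8% at Nap1l5 (1.894 kb), each with 1 RING1B peak, and 0 at Mcts2 and Nnat. At Zdbf2, SUZ12 covered 6.84% and PCGF2 10.2%, and each list had peaks away from the listed promoters. In all, 16 of the 18 clusters had a listed gene with RING1B and 10 had a listed gene with all 3 factors. Among single genes of the genome, 53.2% had RING1B and 13.4% had all 3. A cluster with more listed genes can more easily hold such a gene, and no like share of clusters over the genome was computed.

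**Figure D5:**
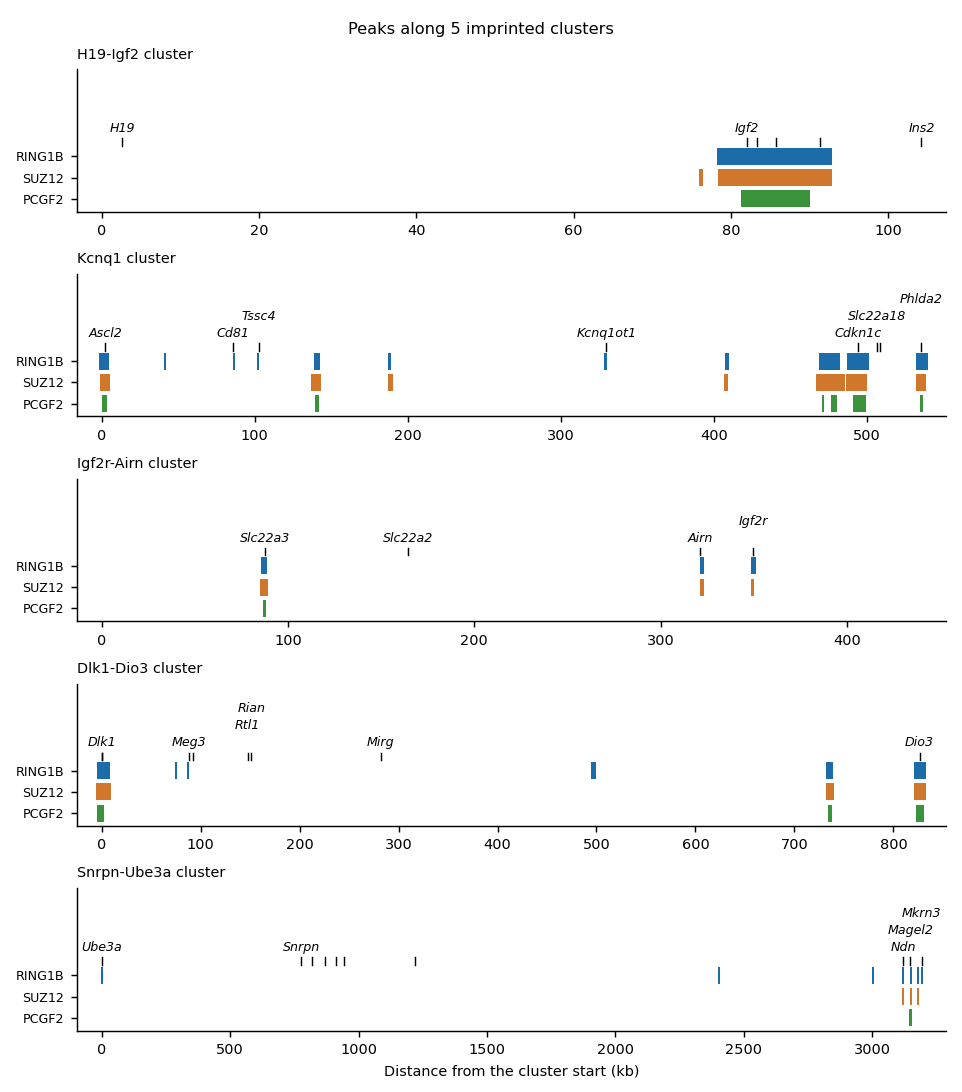
RING1B, SUZ12 and PCGF2 peaks (coloured bars) along 5 imprinted clusters, in kb from the cluster start, with the TSSs of listed genes as ticks; very narrow peaks are drawn slightly wider so that they show. Wide bars in all 3 rows lie at Igf2, Ascl2, Cdkn1c, Phlda2, Dlk1 and Dio3 and beside Cdkn1c, while the stretch from Rtl1 to Mirg and the 6 TSSs of Snrpn have none.

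A further 36 genes, imprinted in some tissue or neighbours of the same clusters, were counted in the same way. Their median CpG observed/expected was 0.7425, against 0.5386 for all genes. RING1B lay at 26 (72.2%, against 53.2% of all genes and 88.8% of CpG-rich genes). SUZ12 lay at 13 (36.1%, against 24.8% and 40.4%). PCGF2 lay at 11 (30.6%, against 13.5% and 23.1%), and all 3 at the same 11 (30.6%, against 13.4% and 23%). These were Kcnq1, Begain, Peg12, Atp10a, Calcr, Pon2, Klf14, Kcnk9, Rasgrf1, Sfmbt2 and Gab1, with RING1B peaks from 1967 bp at Pon2 to 11271 bp at Sfmbt2, a Polycomb-related gene. Peg12 is a neighbour of Magel2 and Ndn, and had 4589 bp of RING1B, 6735 bp of SUZ12 and 2450 bp of PCGF2. Kcnq1, a potassium channel gene whose gene body holds Kcnq1ot1, had 4169, 6755 and 2578 bp. RING1B and SUZ12 without PCGF2 lay at Osbpl5 (2.78%, against 11.1% of all genes), and SUZ12 alone at Tnfrsf23. RING1B alone lay at 14 genes (38.9%, against 28.6%) and none of the 3 at 9 (25%, against 46.5%). H13 and Blcap, the host genes of Mcts2 and Nnat, each had RING1B alone, with peaks of 1279 and 1273 bp at their own promoters.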

How the data were processed

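Peaks were those of 3 deposited lists, whose values are start and end positions on mm10 in base pairs. The authors aligned cChIP-seq reads with Bowtie 2 to a concatenated mm10 and hg19 genome, hg19 being that of the spike-in, kept unique reads, removed duplicates and called broad peaks with MACS2 against Input. For RING1B and SUZ12 they called peaks on merged replicates in both lines and kept those found in both, and RING1B peaks that did not lose signal on tamoxifen in PRC1CKO cells were removed. For PCGF2 they kept peaks called in every replicate of PRC1CPM. The rules differ between lists, which can change peak number and width.

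Coordinates were compared with curated RefSeq TSSs of GRCm38.p6, the assembly of mm10, and are counted from base 1. The overlap code (Python 3.11.15) was tested on simulated intervals, and matplotlib 3.10.9 drew the figures. The genes and lists were chosen with earlier results of these data known, and clusters, expressed copy and promoter class are textbook assignments. Every gene was named, with full values for those with SUZ12 or PCGF2 and the widest peaks among those with RING1B alone. Promoters were printed for the widest domain of the 4 leading clusters with an entry in the RefSeq promoter table (Cdkn1c, H19, Ins2, Rtl1, Peg10, Sgce, Trappc9, Impact and Nespas had none) and for CpG-rich genes without RING1B. Of 38 further imprinted genes or neighbours, 36 matched the annotation. Alternatives changed the promoter window, overlap, peak width, transcripts and joining of peaks. Signal in treated cells was not analysed here.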

Additional observations from a re-analysis of the deposited data

How the results depend on the processing

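Each count was recomputed under 9 alternatives: promoters of 1000 or 5000 bp either side of the TSS, a peak over the TSS itself, at least 500 bp of overlap, only peaks of at least 1000 bp, predicted transcripts included, protein-coding transcripts only, the most upstream TSS only, and peaks within 1000 bp joined. All counts stayed within 1.5 times the reported count. Genes with RING1B ran from 28 to 32, with SUZ12 from 16 to 20, with PCGF2 and with all 3 from 12 to 15, and with none from 7 to 13. The lowest RING1B count and the lowest count with none came from protein-coding transcripts, which leave 35 genes. As shares, RING1B ran from 69% (with peaks of at least 1000 bp) to 80% (with protein-coding transcripts), against 41.7% and 58.4% of all genes under the same settings. SUZ12 ran from 38.1% to 51.4%, against 18.9% and 27.2%, and PCGF2 from 28.6% to 40%, against 12% and 14.5%. All 3 together ran from 28.6% to 40%, against 11.8% and 14.5%, and none from 20% to 31%, against 41.3% and 57.6%. The lowest SUZ12 and PCGF2 counts came from requiring the TSS itself to be covered, when Peg10, Sgce and Nespas left both lists and Nap1l5 left SUZ12. The median RING1B width ran from 2666.5 to 3152 bp. No paired analysis was possible because no list holds a value per replicate. Without heights, a missing peak shows only that none was listed.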

Other observations

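Peaks away from the listed promoters also lay inside imprinted genes. In a Zdbf2 intron, a RING1B peak of 3156 bp (chr1:63247101-63250256) lay inside 4235 bp of SUZ12 and held 2473 bp of PCGF2, with its middle 24.6 kb from the nearest curated Zdbf2 TSS. Elsewhere in the Zdbf2 introns, a PCGF2 peak of 4620 bp (chr1:63259322-63263941) shared 0 bp with RING1B and 0 bp with SUZ12, unlike the other 5 PCGF2 peaks that lay in the clusters away from listed promoters. In an Sgce intron, a RING1B peak of 3135 bp (chr6:4738007-4741141) had its middle 7.63 kb from the Sgce TSS, and shared 0 bp with SUZ12 or PCGF2. It was nearly as wide as the 3850 bp peak at the Peg10 and Sgce starts.

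In the Igf2 gene, a SUZ12 peak of 541 bp (chr7:142651408-142651948) had its middle in an exon and shared 0 bp with RING1B. Near Mkrn3, a RING1B peak of 1575 bp (chr7:62406152-62407726) overlapped 1778 bp of SUZ12 with its middle 13.2 kb from the Mkrn3 TSS, in an intron of the annotated gene Gm32061, while the Mkrn3 start itself had RING1B alone. No explanation of these positions was tested.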
